A study of Homo sapiens with 6 samples.

Results

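The enzymes that modify, process and cross-link collagen were described in U87 cells depleted of ZNF768, together with the collagen genes themselves. Genes were taken by symbol if they encode a collagen chain, a prolyl or lysyl hydroxylase of collagen, a lysyl oxidase or a procollagen C-proteinase enhancer. Of 62 such genes in RefSeq, 13 were named in the table of the array platform, out of 14884 named genes in all. Only 1 of 44 collagen genes was among them, COL26A1, so the data bear on the enzymes of collagen and hardly on collagens. The prolyl 4-hydroxylases and lysyl hydroxylases were not analyzed here because no probeset carried their symbols in the table used. The 13 genes were the 5 lysyl oxidases LOX and LOXL1 to LOXL4, the 4 prolyl 3-hydroxylase family genes P3H1 to P3H4 with their partner CRTAP, the C-proteinase enhancers PCOLCE and PCOLCE2, and COL26A1.

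U87 is an established human glioblastoma line, and all 6 samples came from it. The ZNF768 knockdown group was transduced with lentiviruses against ZNF768 and selected, and the control group is labeled only as control. For selection the paper gives puromycin or blasticidin, depending on the construct. RNA was collected 96 h after infection and hybridized to Affymetrix Human Gene 2.0 ST arrays, with 3 arrays per group. The labels call the 3 samples of each group biological replicates, and do not state how many hairpins were used. Values are log2 expression values, on which a difference of 1 is a doubling. The array medians lay between 6.398 and 6.44, and the correlation across probesets was 0.9935 to 0.994 within the knockdown group, 0.992 to 0.994 within the control group and 0.977 to 0.980 between groups. ZNF768 itself read 7.02, 7.14 and 7.31 in knockdown cells, against 8.49, 8.54 and 8.54 in control cells. Its log2 fold change was -1.36 (SE 0.0851, limma adjusted p = 0.00015), so the target fell on all 3 arrays.

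Collagen chains are hydroxylated on prolines and lysines in the endoplasmic reticulum, fold into a triple helix and are secreted as procollagen. Outside the cell, proteinases such as BMP1 remove the propeptides, a step that the C-proteinase enhancers speed up, and lysyl oxidases then convert lysines to aldehydes that form covalent cross-links between the fibers. Prolyl 3-hydroxylation is a rare modification, and loss of CRTAP or P3H1 causes recessive osteogenesis imperfecta. In the brain most matrix is not fibrillar collagen, whereas glioblastoma cells in culture can express a broad set of matrix genes.

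Sequences upstream of 4 genes that passed the test are shown first because ZNF768 is a transcription factor. They are RefSeq sequences of GRCh38.p14, read 5′ to 3′ on the strand of the gene, and hold the 250 bases before the annotated start. Where several starts were listed, 2 for P3H2 and 3 for LOX, the outermost was used and the others were not read. Capitals mark matches to any of 6 short motifs searched on both strands. P3H1 and P3H2 stand for the prolyl 3-hydroxylases and LOX and LOXL1 for the lysyl oxidases, a family with 1 rise and 1 fall.
P3H1 (chr1:42767029-42767278, minus strand): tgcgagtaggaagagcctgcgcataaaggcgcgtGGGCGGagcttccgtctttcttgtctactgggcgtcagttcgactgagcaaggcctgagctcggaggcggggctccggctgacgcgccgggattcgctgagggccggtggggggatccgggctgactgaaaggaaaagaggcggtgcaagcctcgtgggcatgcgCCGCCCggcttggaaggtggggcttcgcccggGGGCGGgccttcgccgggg
P3H2 (chr3:190122279-190122528, minus strand): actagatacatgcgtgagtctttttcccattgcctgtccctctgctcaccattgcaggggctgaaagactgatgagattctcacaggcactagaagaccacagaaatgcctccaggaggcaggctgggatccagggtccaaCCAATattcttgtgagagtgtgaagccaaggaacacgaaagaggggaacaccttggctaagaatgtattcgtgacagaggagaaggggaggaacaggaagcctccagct
LOX (chr5:122078260-122078509, minus strand): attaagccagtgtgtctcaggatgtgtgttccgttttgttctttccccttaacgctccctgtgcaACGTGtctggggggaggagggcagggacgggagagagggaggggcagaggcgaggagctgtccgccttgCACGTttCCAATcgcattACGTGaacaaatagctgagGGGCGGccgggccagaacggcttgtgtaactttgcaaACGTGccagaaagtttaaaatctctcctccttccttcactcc
LOXL1 (chr15:73926212-73926461, plus strand): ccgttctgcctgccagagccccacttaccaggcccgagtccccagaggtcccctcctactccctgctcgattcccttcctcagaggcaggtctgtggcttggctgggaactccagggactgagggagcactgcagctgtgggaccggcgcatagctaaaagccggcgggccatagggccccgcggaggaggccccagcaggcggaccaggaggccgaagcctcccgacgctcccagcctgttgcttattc

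The P3H1 window held 3 matches to GGGCGG, the GC box, on either strand. The P3H2 window held CCAAT, the core of the CCAAT box, on its own. The LOX window held 4 matches to ACGTG, the core bound by hypoxia-inducible factors, with CCAAT and GGGCGG between them. The LOXL1 window held none of the 6 motifs. Of the 11 genes with an entry (LOXL2 and P3H4 had none), 6 held GGGCGG, 2 held CCAAT and 1 held ACGTG, while 42.6%, 32.0% and 18.5% of all 35116 windows of this length did. All windows include every listed start of a gene, whereas the 11 genes were read at a single start each. TATAAA, the TATA box, was in 0 of 11 and in 10.7% of all windows. ZNF768 is known to bind a motif of 2 separated blocks within mammalian-wide interspersed repeats. The blocks GCTGTGTG and CCTCTCTG were each in 0 of 11 windows and in 1.72% and 2.79% of all. A match is only a description of letters, and these windows do not cover distal sites.

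Among the 13 genes, 5 rose and 1 fell in knockdown cells, and the other 7 were not called (limma on all 53617 probesets, adjusted p under 0.05). The rises were P3H1, P3H2, P3H4, CRTAP and LOX, and the fall was LOXL1. Many genes changed on these arrays: 33.4% of the 14884 named genes passed the test, 16.6% higher and 16.8% lower in knockdown cells, against 46.2%, 38.5% and 7.69% of the 13 genes. With so few genes these shares are counts and not a result about the list. The median log2 fold change of the 13 genes was 0.07, and that of all named genes was 0.04. The 3 knockdown arrays did not overlap with the 3 control arrays for 7 of the 13 genes (53.8%), while this held for 51.5% of all named genes. Each of the 13 genes was read by 1 probeset. In bulk RNA of a single cell line, a change in every cell and a change in a part of the cells cannot be told apart.

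**Figure D1:**
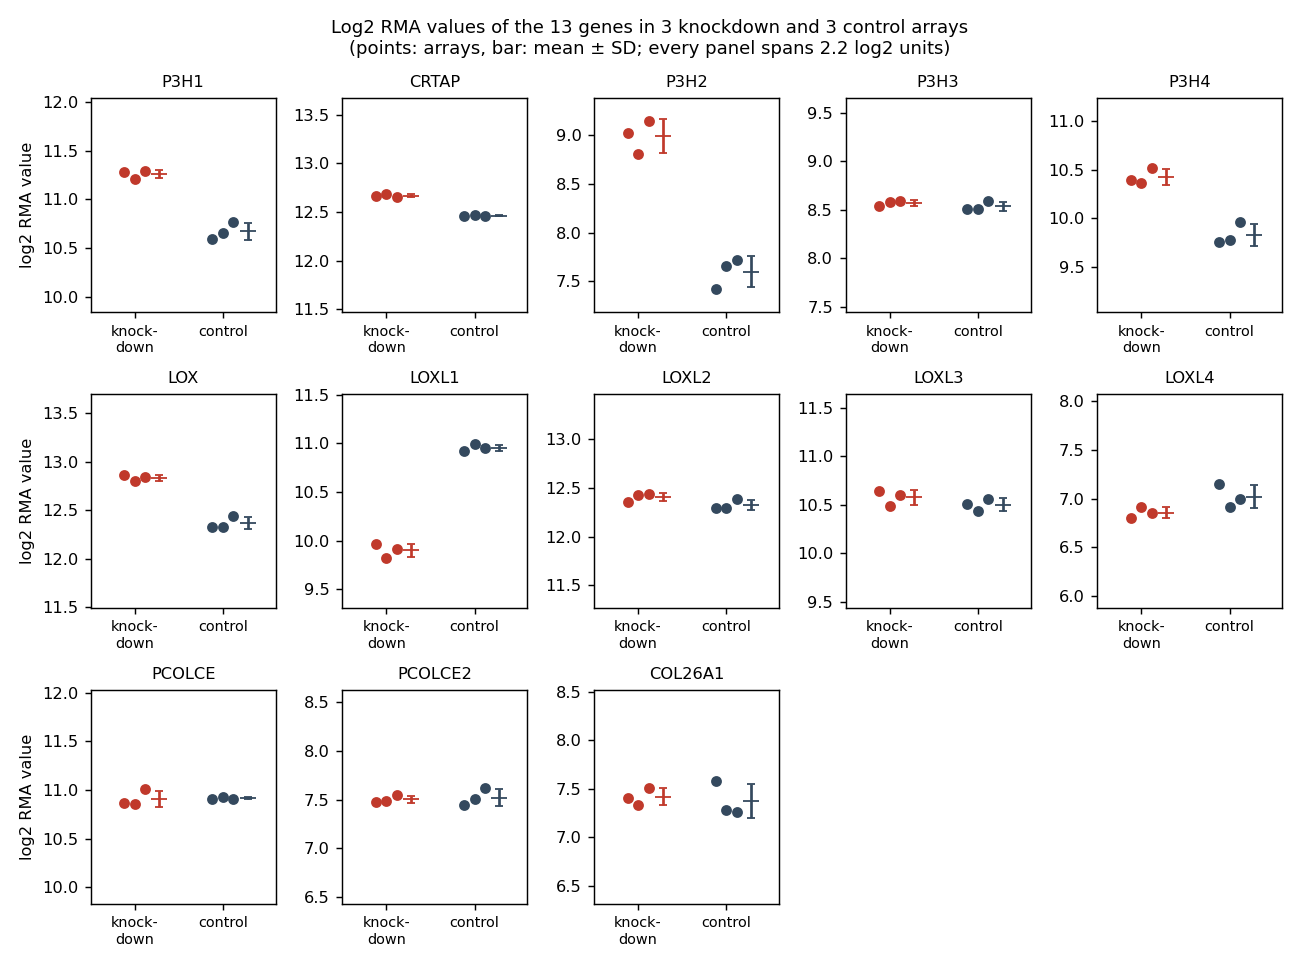
Log2 RMA values of the 13 genes on each array, with ZNF768 knockdown left of control, points for single arrays and bars for the mean ± SD; all panels span the same number of log2 units. P3H2 lies between 8.81 and 9.15 in knockdown cells and between 7.42 and 7.72 in control cells, and LOXL1 between 9.83 and 9.96 in knockdown cells and between 10.92 and 10.99 in control cells.

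The prolyl 3-hydroxylases and their partner rose in 4 of 5 cases, with a median log2 fold change of 0.59, beside 16.6% higher and a median of 0.04 over all named genes. With any 1 array left out 3 of 5 rose, since CRTAP was no longer called. P3H2, which hydroxylates prolines of basement membrane collagen IV, had the largest change of the 13 genes. It read 9.02, 8.81 and 9.15 in knockdown cells, against 7.42, 7.65 and 7.72 in control cells. All knockdown arrays lay above all control arrays by more than the spread of either group, whose means were 8.99 ± 0.173 in knockdown cells and 7.60 ± 0.159 in control cells (SD, n = 3). The log2 fold change was 1.40 (SE 0.119, 95% interval 1.11 to 1.68, limma adjusted p = 0.000448), a 2.64-fold rise and the rise ranked 39 of all named genes.

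P3H1 is the enzyme of the complex with CRTAP and cyclophilin B that hydroxylates fibrillar collagen chains. It read 11.29, 11.21 and 11.29 in knockdown cells, against 10.59, 10.66 and 10.77 in control cells, again without overlap. The log2 fold change was 0.59 (SE 0.0673, limma adjusted p = 0.00143), a 1.504-fold rise. P3H4, also called SC65, is a non-catalytic family member that in mice works with P3H3 and lysyl hydroxylase 1. It read 10.40, 10.36 and 10.52 in knockdown cells, against 9.75, 9.77 and 9.96 in control cells. The log2 fold change was 0.59 (SE 0.0813, limma adjusted p = 0.00297), a 1.51-fold rise.

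CRTAP, the non-enzymatic partner of P3H1, moved little. It and LOX are given with full values after these were seen, since they were called with changes under 1.5-fold. CRTAP read 12.66, 12.69 and 12.65 in knockdown cells, against 12.46, 12.47 and 12.45 in control cells. The groups did not overlap, and the log2 fold change of 0.21 was a 1.15-fold rise (SE 0.0505, limma adjusted p = 0.0297). This call did not hold with any 1 of the 6 arrays left out, when limma adjusted p lay between 0.0614 and 0.0791 at log2 fold changes of 0.20 to 0.21. P3H3 read 8.54, 8.58 and 8.59 in knockdown cells, against 8.51, 8.51 and 8.59 in control cells, with overlapping groups (log2 fold change 0.03, limma adjusted p = 0.714).

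**Figure D2:**
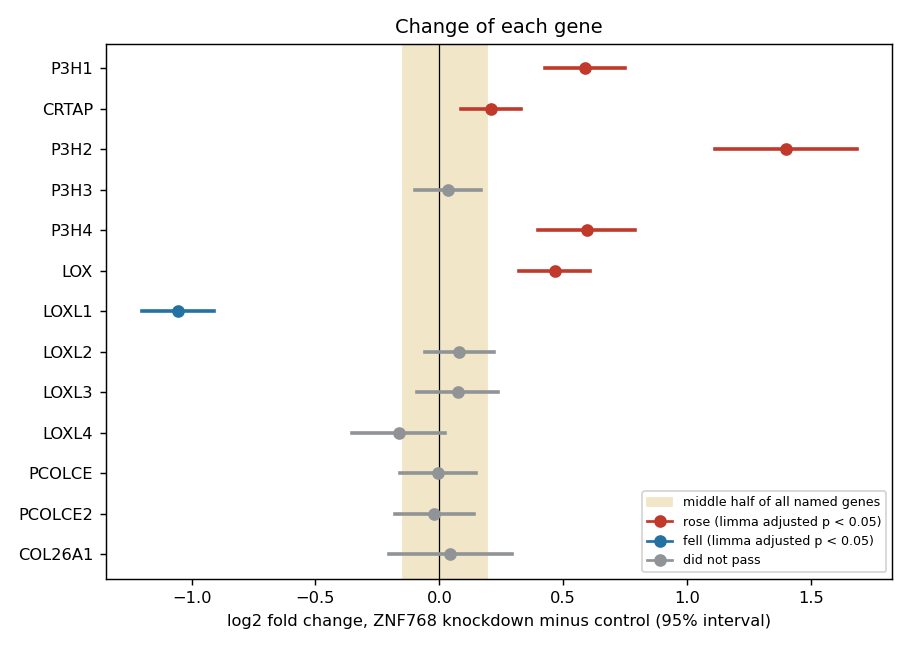
Log2 fold change of each of the 13 genes, knockdown minus control, with the 95% interval of the limma fit and a shaded band for the middle 50% of all named genes (-0.15 to 0.19). P3H2 at 1.40 and LOXL1 at -1.06 lie farthest from 0, on opposite sides, and the intervals of the 7 genes that did not pass span 0.

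The 5 lysyl oxidases did not move together, with 1 rise, 1 fall, 3 that did not pass and a median log2 fold change of 0.07. The share called was 40%, beside 33.4% and a median of 0.04 over all named genes. It is a count and not a result about the family. LOX, which cross-links collagen and elastin, read 12.86, 12.80 and 12.84 in knockdown cells, against 12.33, 12.33 and 12.44 in control cells. Every knockdown array was higher than every control array. The log2 fold change was 0.47 (SE 0.0589, limma adjusted p = 0.00218), a 1.38-fold rise.

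LOXL1, which in mice is needed to maintain elastic fibers, moved the other way. It read 9.96, 9.83 and 9.91 in knockdown cells, against 10.92, 10.99 and 10.95 in control cells. The spread within each group was small beside the distance between the groups. The log2 fold change was -1.06 (SE 0.0609, 95% interval -1.20 to -0.91, limma adjusted p = 0.000113), so knockdown cells were at 0.481 of the control level, the fall ranked 452 of all named genes.

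LOXL2, which acts on collagen IV, and LOXL3 had log2 fold changes of 0.08 and 0.07 (limma adjusted p = 0.386 and 0.497). LOXL4 had a log2 fold change of -0.16 (95% interval -0.35 to 0.02, limma adjusted p = 0.199). Its values were 6.80, 6.91 and 6.85 in knockdown cells, against 7.15, 6.91 and 6.997 in control cells, so the groups did not overlap but nearly touched.

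PCOLCE and PCOLCE2 bind procollagen and raise the rate at which its C-propeptide is cleaved. Neither passed the test. PCOLCE read 10.87, 10.85 and 11.01 in knockdown cells, against 10.91, 10.93 and 10.90 in control cells (log2 fold change 0.00, limma adjusted p = 0.971). PCOLCE2 read 7.47, 7.49 and 7.54 in knockdown cells, against 7.44, 7.51 and 7.62 in control cells (log2 fold change -0.02, limma adjusted p = 0.868). COL26A1, a collagen with an EMI domain that was first described in the testis and ovary of mice, read 7.41, 7.34 and 7.51 in knockdown cells, against 7.58, 7.29 and 7.26 in control cells. Its log2 fold change was 0.04 (95% interval -0.20 to 0.29, limma adjusted p = 0.804), and the groups overlapped.

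Under 16 other ways of processing, the log2 fold change of P3H2 stayed between 1.31 and 1.49 and that of LOXL1 between -1.09 and -0.99. P3H1, P3H4 and LOX also kept their calls, and none of the 7 genes that did not pass gained one.

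**Figure D3:**
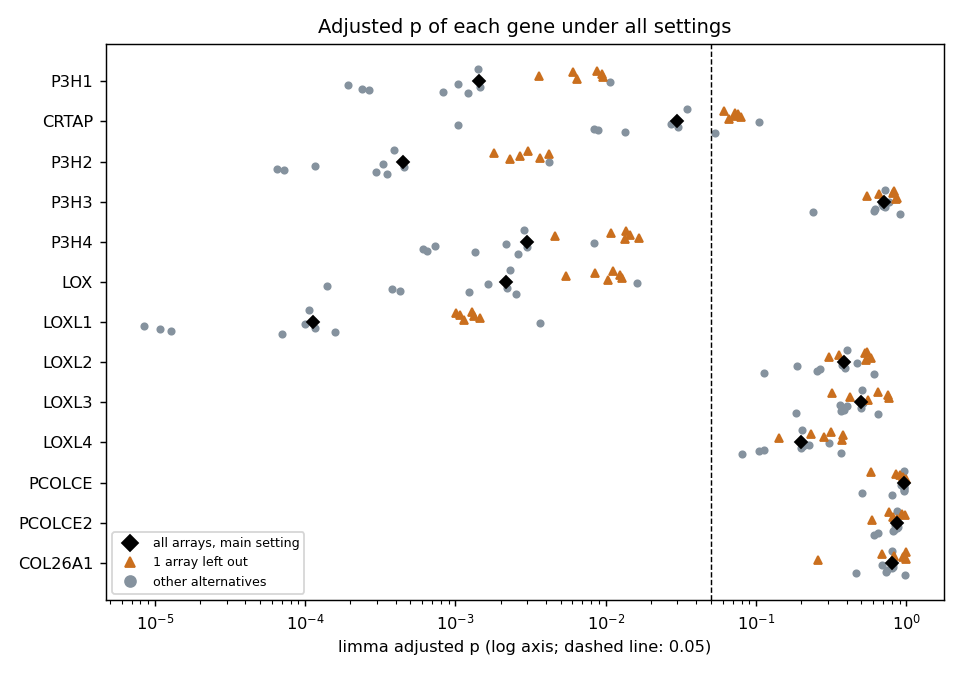
Limma adjusted p on a log axis for each of the 13 genes, with diamonds for the fit as reported, triangles for 1 array left out, circles for the other alternatives and a dashed line at 0.05. P3H1, P3H2, P3H4, LOX and LOXL1 stay left of the line under all 16 alternatives, the 6 triangles of CRTAP lie right of it, and the 7 other genes stay right of it.

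COL5A1, a fibrillar collagen chain that limits the width of collagen I fibrils, was not named by the platform table and entered none of the counts above. It could be read only through the annotation in the supplement of the study, which at hand lists the largest rises alone, so it was reachable because it rose. It read 9.66, 9.68 and 9.71 in knockdown cells, against 8.86, 8.96 and 9.002 in control cells. The log2 fold change was 0.74 (SE 0.0604, limma adjusted p = 0.000384), a 1.67-fold rise that says nothing of the other collagens.

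Differences within a family were compared on each array, for 21 pairs chosen after the values were seen. For 18 pairs the within-array difference in knockdown cells did not overlap that in control cells, which gives the smallest p that 3 against 3 arrays allow (0.1, exact permutation test, two-sided; 0.117 adjusted over the 21 pairs). This test cannot go below 0.1 with 3 arrays per group, and no model-based test of the pairs was run. The pairs share genes, so they are not independent. The same share over other pairs of named genes was not computed, and 51.5% of single named genes did not overlap between groups. The 18 pairs are thus a count and not a result about the families. The change of LOX minus that of LOXL1 was 1.52 on the log2 scale, and that of P3H2 minus P3H3 was 1.36. P3H1 and P3H4 changed by amounts only -0.01 apart (exact permutation p = 1), and LOXL2 and LOXL3 by amounts 0.01 apart (exact permutation p = 0.9). Of 13 pairs of collagen chains that form one trimer or belong to one type, 0 had both genes named.

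Genes that overlap the 13 genes, or lie within 1000 bases of them, were read as well, since 10 of the 13 have such a neighbor. Of 14 neighbors, 8 were named in the platform table. LOXL1-AS1, transcribed from the other strand of LOXL1 with starts 1324, 1498 and 1786 bases inside it, had 2 probesets. Their log2 fold changes were -0.78 (limma adjusted p = 0.000575) and -1.07 (limma adjusted p = 0.00235), beside -1.06 for LOXL1. SRFBP1, which overlaps LOX, fell (log2 fold change -0.55, limma adjusted p = 0.00151) while LOX rose. C1orf50, whose start lies 221 bases from that of P3H1 on the other strand, rose (log2 fold change 0.29, limma adjusted p = 0.0365).

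LOXL2-AS1 rose (log2 fold change 0.74, limma adjusted p = 0.000897), as did HTRA2, a mitochondrial protease gene that overlaps LOXL3 (log2 fold change 0.42, limma adjusted p = 0.00188), although LOXL2 and LOXL3 did not pass. R3HCC1, PCOLCE-AS1 and GPR162 had log2 fold changes of 0.23, -0.08 and 0.06 and did not pass. The paper states that a standard Affymetrix labeling protocol was used. The strand that each probeset reads was not checked here. Whether a probeset of a gene also took up signal from its antisense partner was therefore not tested.

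**Figure D4:**
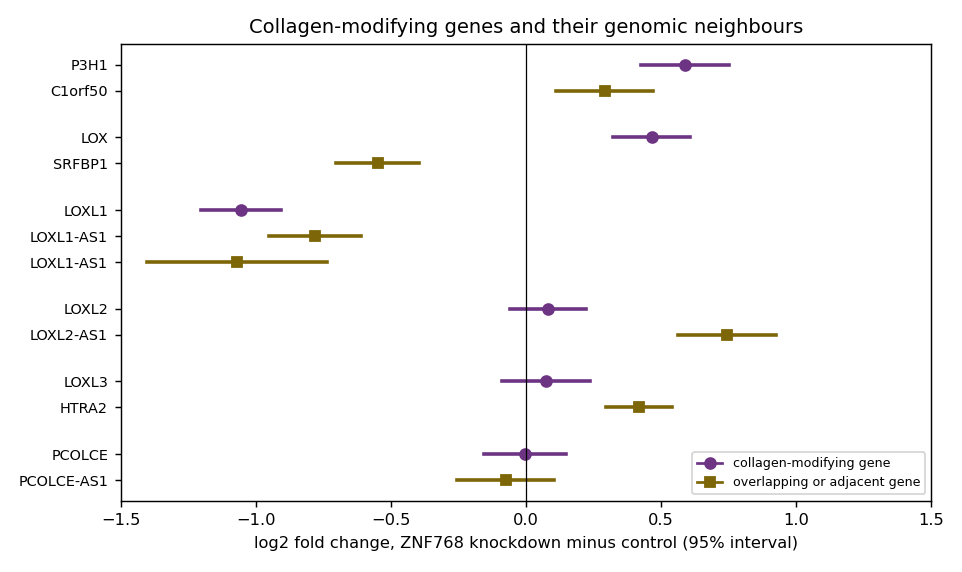
Log2 fold change, knockdown minus control, with 95% intervals, of 6 collagen-modifying genes (circles) and genes that overlap or adjoin them (squares), with R3HCC1 and GPR162 not drawn. LOXL1 and both LOXL1-AS1 probesets lie on the same side of 0, whereas LOX at 0.47 and SRFBP1 at -0.55 lie on opposite sides.

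Other genes of collagen handling were counted in lists, to be read beside the 33.4% of all named genes that were called and their median log2 fold change of 0.04. The share called was 66.7% for folding and export, 50% for proteinases, 60% for receptors, 45.5% for degrading genes, 35.3% for fibril-binding genes and 40% for the TGF-beta pathway. In lists of 4 to 17 genes these shares are counts and not a result about a list. Only genes named in the platform table could be read, so the lists are not whole families. These were 6 of 17 listed genes of folding and export, 4 of 9 proteinases and 5 of 11 receptors. They were also 11 of 16 degrading genes, 17 of 20 fibril-binding genes and 5 of 12 of the TGF-beta pathway. Of 6 measured genes for procollagen folding, glycosylation and export, 2 rose and 2 fell (median log2 fold change 0.13). SEC23A, a COPII coat subunit for export of procollagen, rose by 0.66 on the log2 scale and TMEM38B, an ion channel of the endoplasmic reticulum, by 0.36 (limma adjusted p = 0.00132 and 0.0297). COLGALT1, which adds galactose to hydroxylysine, fell by 1.14 and KLHL12, a ubiquitin ligase adaptor for large COPII carriers, by 0.45 (limma adjusted p = 9.73e-05 and 0.00628). With 1 array left out, 1 or 2 genes rose. Of 4 procollagen proteinases 2 rose, both with C-proteinase activity. TLL1 rose by 1.26 and BMP1 by 0.68 on the log2 scale (limma adjusted p = 0.00143 and 0.00102), while their enhancers PCOLCE and PCOLCE2 did not pass. TLL1 read 7.30, 7.23 and 7.73 in knockdown cells, against 6.26, 6.20 and 6.02 in control cells. The control values lie below the array medians of 6.398 to 6.44, and whether they lie above background is not known.

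Of 5 measured collagen receptors, 2 rose by small amounts, GP6 by 0.28 and DDR1 by 0.22 (limma adjusted p = 0.0347 and 0.048). With any 1 array left out 0 rose. CD44, better known as a hyaluronan receptor, fell by 0.70 on the log2 scale (limma adjusted p = 0.000664). Of 11 collagen-degrading genes 3 fell and 2 rose (median log2 fold change -0.11). CTSK, the protease of osteoclasts that cuts helical collagen, read 8.79, 8.94 and 8.74 in knockdown cells, against 12.11, 12.10 and 11.99 in control cells. It fell by 3.24 on the log2 scale (limma adjusted p = 7.67e-06), and MMP1, interstitial collagenase, fell by 1.07 (limma adjusted p = 0.0071). The other fall was that of MMP14, a membrane-type metalloproteinase, by 0.88 (limma adjusted p = 0.000183). MMP15, of the same type, and PEPD, which frees proline from dipeptides, rose by 0.28 and 0.20 (limma adjusted p = 0.0184 and 0.0446). However, with 1 array left out only 0 or 1 gene of the list rose.

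Of 17 proteoglycans and glycoproteins that bind fibrils, 5 fell and 1 rose (median log2 fold change -0.01). FN1, fibronectin, fell by 2.06 (limma adjusted p = 1.18e-05). LUM, lumican, which regulates fibril spacing in the cornea, fell by 1.23 (limma adjusted p = 0.000897). MATN2, a matrilin, rose by 0.36 (limma adjusted p = 0.0116). TNXB counted as not passing by its brightest probeset, although 5 of its 8 probesets fell, with log2 fold changes of -0.76 to -0.16 over all 8. Of 5 genes of the TGF-beta pathway, an inducer of collagen and LOX in many cells, 2 rose. SMAD3 rose by 0.63 and SMAD2 by 0.40 on the log2 scale (limma adjusted p = 0.000894 and 0.00426). SMAD4, SMAD7 and CCN2 did not pass, with log2 fold changes of 0.07, 0.10 and 0.02 (limma adjusted p = 0.450, 0.400 and 0.821). Activity of the pathway was not tested.

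**Figure D5:**
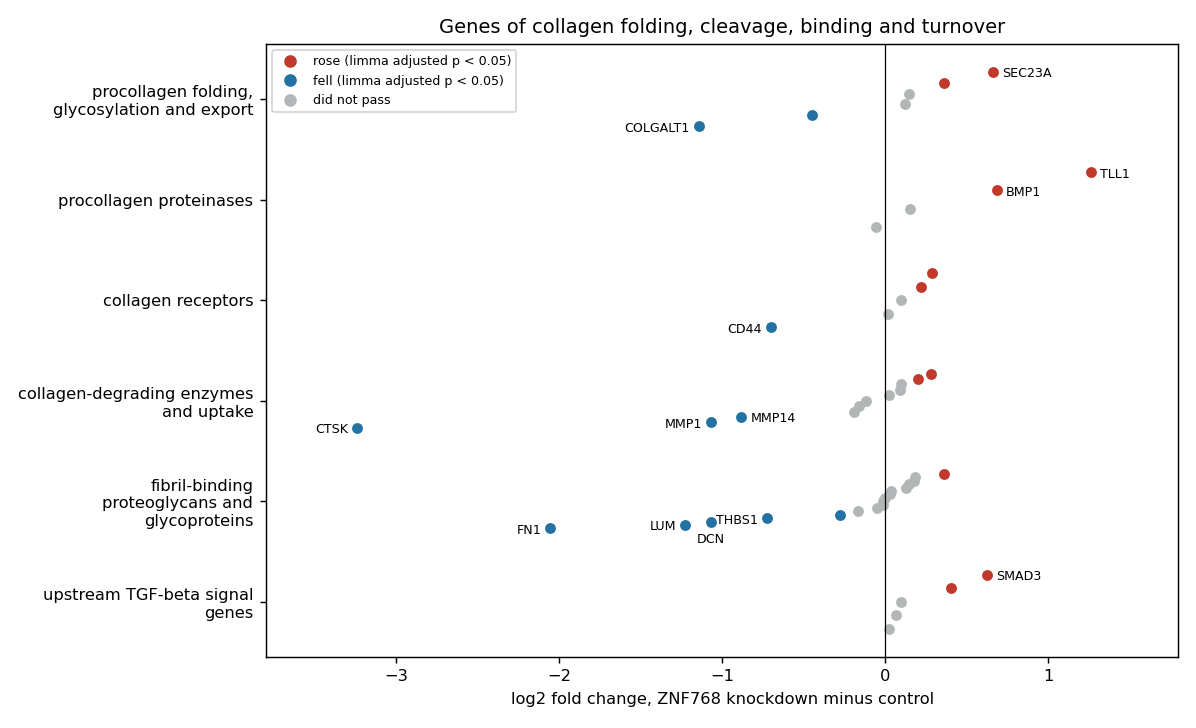
Log2 fold change, knockdown minus control, of genes in 6 lists of collagen handling, each point 1 gene colored by its limma call. CTSK at -3.24 and FN1 at -2.06 lie farthest left, and TLL1 at 1.26 farthest right.

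Markers of cell types were read beside these results, although all 6 samples came from the U87 line. They are therefore read as genes of these cultures and not as a measure of other cells. Named in the platform table were 9 of 10 listed glial and glioma markers and 7 of 10 fibroblast markers. For endothelial and myeloid markers these were 6 of 8 and 6 of 10. The share called was 33.3% each for the glial and glioma, endothelial and myeloid markers and 57.1% for the fibroblast markers. Over all named genes it was 33.4%. In lists of 6 to 9 genes these shares are counts and not a result about a cell type. Of 9 glial and glioma markers, 0 rose and 3 fell (CD44, VIM and NES). Their summed linear level was 9590 to 10359 in knockdown cells, against 12384 to 13049 in control cells. Within this list CHI3L1, a secreted glycoprotein common in glioblastoma, read 12.40 to 12.65 in knockdown cells, against 12.57 to 12.698 in control cells, and did not pass. GFAP, OLIG2, SOX2 and S100B, the more specific glial and neural stem cell genes, read 5.88 to 7.24 over the 6 arrays and did not pass, and whether these probesets lie above background is not known. Of 7 fibroblast markers, TAGLN rose and 3 fell (DCN, LUM and MFAP5), with sums of 1245 to 1387 in knockdown cells, against 1545 to 1844 in control cells. Of 6 endothelial markers 0 rose and 2 fell (KDR and ERG, and 1 with any 1 array left out), with sums of 1230 to 1242 in knockdown cells, against 1764 to 1909 in control cells. KDR, with a log2 fold change of -0.87, made up most of that difference, and PECAM1, VWF, CLDN5 and EMCN did not pass. Of 6 myeloid markers 0 rose and 2 fell (CD68 and CSF1R, and 1 or 2 with 1 array left out). Their sums were 1208 to 1312 in knockdown cells, against 7194 to 7372 in control cells, and CD68, a lysosomal protein gene, made up most of that difference with a log2 fold change of -3.11. No marker was at 0 on any array. The part of these genes in the results on collagen enzymes was not tested.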

How the data were processed

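RNA of 3 ZNF768 knockdown and 3 control samples was hybridized to 1 array each (Affymetrix Human Gene 2.0 ST). The authors deposited log2 values per probeset, made with the Robust Multichip Average in the oligo package, which corrects background, equalizes the array distributions and summarizes probes. Versions are not given in the sources used here. Small changes of dim probesets are compressed by this summary. Of 53617 probesets, 16098 carried 1 symbol in the platform table (0 carried several) and 37519 were unnamed here. All 16098 Entrez identifiers matched RefSeq and 0 symbols changed. For 779 of 14884 genes with several probesets, the one with the highest mean was used.

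Groups were compared with limma 3.58.1 in R 4.3.3 (lmFit and eBayes, no covariate) on all probesets, with Benjamini-Hochberg adjustment over all and a threshold of 0.05. The fit was tested on simulated data. Having 3 arrays a group limits the precision, and which probesets lie above background is not known. Genes past the test with non-overlapping groups and at least 1.5-fold change were to be given with all values, and the 2 largest rises and falls in each list were named. The genes and lists were chosen with earlier results of these data known. Other normalizations, filters, thresholds and left-out arrays were tried. Sequences were matched by symbol. All 6 value columns were used. A fit without the 1096 probesets whose 3 values of a group were equal, and the comparison of pairs within families, were added after the data were seen.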

Additional observations from a re-analysis of the deposited data

How the results depend on the processing

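Of the 13 genes, P3H1, P3H2, P3H4, LOX and LOXL1 kept direction and call in all 16 alternatives, with the highest limma adjusted p at 0.0166. CRTAP lost its call in 9, namely with each array left out, with cyclic loess (log2 fold change 0.18, limma adjusted p = 0.0534), with the replicate block (0.21, limma adjusted p = 0.104) and at a threshold of 0.01. The cause was not tested. Without CRTAP 4 genes rose. PCOLCE and PCOLCE2 turned to 0.0596 and 0.0442 with arrays centered on housekeeping genes. With 1 array left out, log2 fold changes were -0.0527 to 0.0244 for PCOLCE, -0.05997 to 0.0275 for PCOLCE2 and -0.0134 to 0.145 for COL26A1. Arrays with the same replicate number showed no clear shared deviation (correlations of deviations -0.07, -0.02 and 0.02). The labels do not say whether these arrays were paired. The replicate block called 1865 named genes higher and 2029 lower in knockdown cells, against 2466 and 2501 without it. At 0.01, 1506 were higher and 1796 lower, and the rises of receptors, degrading enzymes and fibril-binding genes came to 0. Housekeeping centering called 3257 higher and 2137 lower, with the median of named genes at 0.11 in place of 0.04. Without probesets equal within a group, a setting chosen after seeing the data, 2422 were higher and 2451 lower.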
